A study of Mus musculus with 6 samples.

Results

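The genes described are 82 mouse genes for proteins that write, erase, read or move histone and DNA marks. They were chosen by symbol alone: lysine demethylases (Kdm), the Kmt2 and Kmt5 methyltransferases, SET-domain genes (Setd), the CHD and SWI/SNF remodellers (Chd, Smarc, Arid), Ezh1 and Ezh2, the chromobox genes (Cbx), the histone deacetylases (Hdac) and the Tet dioxygenases. These were 82 of the 25189 gene symbols in the count table, and the rule uses no measured value. RNA-seq counts were compared between 3 libraries of ischaemia/reperfusion (I/R) injury with the peptide chemerin-9 (title C9) and 3 libraries of I/R alone. Both groups were male wild-type C57BL/6 mice, sampled as kidney on day 2, and no uninjured or sham group was used here, so both groups share the injury. Neither the ischaemia time, the dose nor the age was given in the labels. The columns of the first group are headed IC with a number, taken here to abbreviate I/R plus C9, and every statement on chemerin-9 rests on that reading. Nothing in the labels says that the 3 libraries of a group came from separate mice, so p-values measure the spread between libraries, which may be technical.

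Chromatin proteins of this kind work in complexes with opposed enzyme activities. PRC2, with Ezh1 or Ezh2 as its catalytic subunit, methylates lysine 27 of histone H3, and the polycomb chromobox proteins read that mark as part of PRC1. COMPASS-type complexes built on Kmt2 or Setd1 proteins methylate lysine 4 of histone H3, Kdm enzymes remove methyl groups, and histone deacetylases remove acetyl groups. SWI/SNF, ISWI and CHD proteins use ATP to move nucleosomes, and in the kidney deacetylases and Ezh2 have been studied as regulators of the response to injury.

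The I/R with chemerin-9 libraries ranged over 11217252 to 14004529 counts and the I/R libraries over 13069464 to 16938301. The 82 genes took 1.03% to 1.04% of the counts in I/R with chemerin-9 and 1.01% to 1.02% in I/R. A ribosomal RNA row, Rn18s-rs5, took 0.261% to 0.306% of the counts in I/R with chemerin-9 and 0.381% to 0.517% in I/R, and mitochondrial genes took 2.56% to 2.64% in I/R with chemerin-9 and 2.81% to 2.94% in I/R. Replicate 3 of I/R differed from the other I/R libraries by more than sampling noise did elsewhere (chi-square per degree of freedom 6.16 and 5.61, against 1.82 to 2.27 within the other pairs of one group). The kidney label was checked against nephron markers. Of 12, 7 had a row, and their summed level was 22.8 to 26.3 CPM (counts scaled to library size) in I/R with chemerin-9 and 18.4 to 20.9 CPM in I/R, of which Podxl was the greater part. The proximal tubule receptor gene Lrp2 measured 2.51 to 3.85 CPM in I/R with chemerin-9 and 2.79 to 3.79 CPM in I/R. Cdh16 had no count in the 3 libraries of I/R with chemerin-9, and 4 of the 7 averaged under 1 CPM in both groups. Podxl rose with chemerin-9 (log2 0.49, edgeR adjusted p = 0.0017), and Lrp2 and Cubn did not pass. Cell-division genes (6 of 6 measured, Top2a and Mki67 among them) summed to 3649 to 3755 CPM in I/R with chemerin-9 and 3693 to 3839 CPM in I/R. Of these, Mki67 fell and Mcm2 rose (log2 -0.16 and 0.17, edgeR adjusted p = 2.3e-04 and 5.3e-04), and the others did not pass. Matrix-cell genes (5 of 5 measured) summed to 2008 to 2092 CPM in I/R with chemerin-9 and 2514 to 2635 CPM in I/R, but did not move together. Vim (853 CPM on average in I/R with chemerin-9, 1366 CPM in I/R) and Col1a2 fell, Pdgfrb and Col3a1 rose (log2 0.49 and 0.45), and Col1a1 did not pass. Endothelial and leukocyte genes (4 measured) summed to 2.18 to 3.32 CPM in I/R with chemerin-9 and 1.88 to 2.97 CPM in I/R. The libraries thus held little nephron-marker RNA for material labelled kidney tissue. The part of these markers, of the ribosomal and mitochondrial shares and of the batch values in what follows was not tested. Each library carries its own batch value, so batch and group cannot be told apart.

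The promoter windows of 4 of the genes are shown: those with the 3 largest falls (Hdac5, Kmt5c and Kdm3a), and Kmt5b, the paralog of Kmt5c that moved the opposite way. They were chosen after their values had been seen. The sequences are from RefSeq on GRCm38.p6, from 250 bases before the gene start to 50 after, written 5′ to 3′ on the strand of the gene. Capitals mark the CCAAT box, either as CCAAT or, on the other strand, as ATTGG. The Hdac5 window lies at chr11:102230123-102230422 on the minus strand. The Kmt5c window lies at chr7:4739877-4740176 on the plus strand. The Kdm3a window lies at chr6:71632868-71633167 on the minus strand, and the Kmt5b window at chr19:3767171-3767470 on the plus strand.
Hdac5: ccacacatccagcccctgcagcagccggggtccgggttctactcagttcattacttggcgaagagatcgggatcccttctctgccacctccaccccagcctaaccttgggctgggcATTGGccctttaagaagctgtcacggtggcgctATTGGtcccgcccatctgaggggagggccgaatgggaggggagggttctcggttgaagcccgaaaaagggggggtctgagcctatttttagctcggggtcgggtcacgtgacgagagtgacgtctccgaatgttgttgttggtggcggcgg
Kmt5c: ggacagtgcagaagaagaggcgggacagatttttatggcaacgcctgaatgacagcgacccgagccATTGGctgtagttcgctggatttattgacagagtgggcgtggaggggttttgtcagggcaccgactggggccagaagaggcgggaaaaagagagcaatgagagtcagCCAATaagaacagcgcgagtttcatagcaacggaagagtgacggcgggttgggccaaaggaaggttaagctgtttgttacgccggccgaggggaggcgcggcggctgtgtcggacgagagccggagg
Kdm3a: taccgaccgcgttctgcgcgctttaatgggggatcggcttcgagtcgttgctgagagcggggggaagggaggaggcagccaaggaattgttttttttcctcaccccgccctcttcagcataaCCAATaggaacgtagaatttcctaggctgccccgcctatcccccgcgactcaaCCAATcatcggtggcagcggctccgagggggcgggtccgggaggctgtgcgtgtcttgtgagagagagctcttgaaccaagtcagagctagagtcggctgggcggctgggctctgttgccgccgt
Kmt5b: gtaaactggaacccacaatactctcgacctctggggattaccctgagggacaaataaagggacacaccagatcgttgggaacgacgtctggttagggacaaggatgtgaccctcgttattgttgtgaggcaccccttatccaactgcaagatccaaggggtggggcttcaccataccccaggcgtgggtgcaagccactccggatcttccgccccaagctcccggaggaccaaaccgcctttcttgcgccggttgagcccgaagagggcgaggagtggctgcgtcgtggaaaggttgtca
These motifs were chosen after the sequences had been seen. The Hdac5, Kmt5c and Kdm3a windows, of 3 genes lower with chemerin-9, each held 2 CCAAT boxes, and the Kmt5b window, of a gene higher with chemerin-9, held none. The windows of Ezh1 and Setd6, the other genes lower by at least 1.5-fold, also held none, as did that of Chd5, which was higher. Hdac10, also higher by at least 1.5-fold, had no window. Over all members with a window in RefSeq (62 of 82), 24 windows (38.7%) held CCAAT on either strand, against 38% of 27025 promoter windows in the table. Among the 25 windows of genes that fell, 48% held it, and among the 13 of genes that rose, 30.8%. Of the 24 windows of genes that did not pass, 33.3% held it. The GC box GGGCGG, again on either strand, was in 75.8% of the members' windows and in 36% of all windows. The members' windows held a median of 25.5 CpG dinucleotides, against 7 in all windows. The 27025 windows were not limited to the 14184 tested genes, so these contrasts cannot be called particular to the members. ACGTG was in 19.4% of the members' windows and 19.6% of all windows, and CACGTG, which contains ACGTG, in 8.06% and 7.22%, each on either strand. The matches describe the letters and say nothing of what binds there.

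All 82 genes passed the filter on low counts and were tested in one model over 14184 genes. Of these, 54 (65.9%) differed between I/R with chemerin-9 and I/R at an adjusted p under 0.05 (edgeR's quasi-likelihood test, Benjamini-Hochberg over all tested genes), against 51.7% of all tested genes. The members split into 18 that rose (22% of members, against 25.6% of all tested genes) and 36 that fell (43.9%, against 26.1%). The median log2 fold change was -0.11 for the members and -0.0037 for all tested genes. The median change was small, at 0.18 in absolute log2 units for the members and 0.27 for all tested genes. Only 8 members (9.76%, against 15.9% of all tested genes) changed by at least 1.5-fold, 3 upwards (8.18% of all tested genes) and 5 downwards (7.76%). Of the 54, 28 changed by less than 1.2-fold and 18 by 1.2- to 1.5-fold. The groups did not overlap in CPM for 58 members (70.7%, against 58.5% of all tested genes), 21 of them higher (29.3% of all tested genes) and 37 lower (29.2%), and 53 of the 54 were among them. The exception was Cbx1. In bulk RNA, fewer cells of a type and less RNA per cell cannot be told apart.

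In a fit that removed trends along transcript GC content and length, 55 members passed (12 higher and 43 lower), against 52.4% of all tested genes (24.6% higher and 27.8% lower). The rises of Cbx5, Chd1, Chd9, Hdac8, Kdm4c and Setd2 did not pass there, and Cbx5 and Chd1 changed sign. No fall was lost, and 7 further members passed as lower (Chd6, Hdac9, Kdm6a, Kdm7a, Kmt2a, Setd7 and Smarce1). Without replicate 3 of I/R, 59 members passed (19 higher and 40 lower), against 50.3% of all tested genes (25% higher and 25.4% lower). The members had a median of 88.9 CPM, against 26.1 CPM for all tested genes, and among the 10614 genes that reach 5 CPM in at least 3 libraries 57 of 78 members (73.1%) and 61.6% of all genes passed. The part of the higher count level in the share that passed was not tested.

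**Figure D1:**
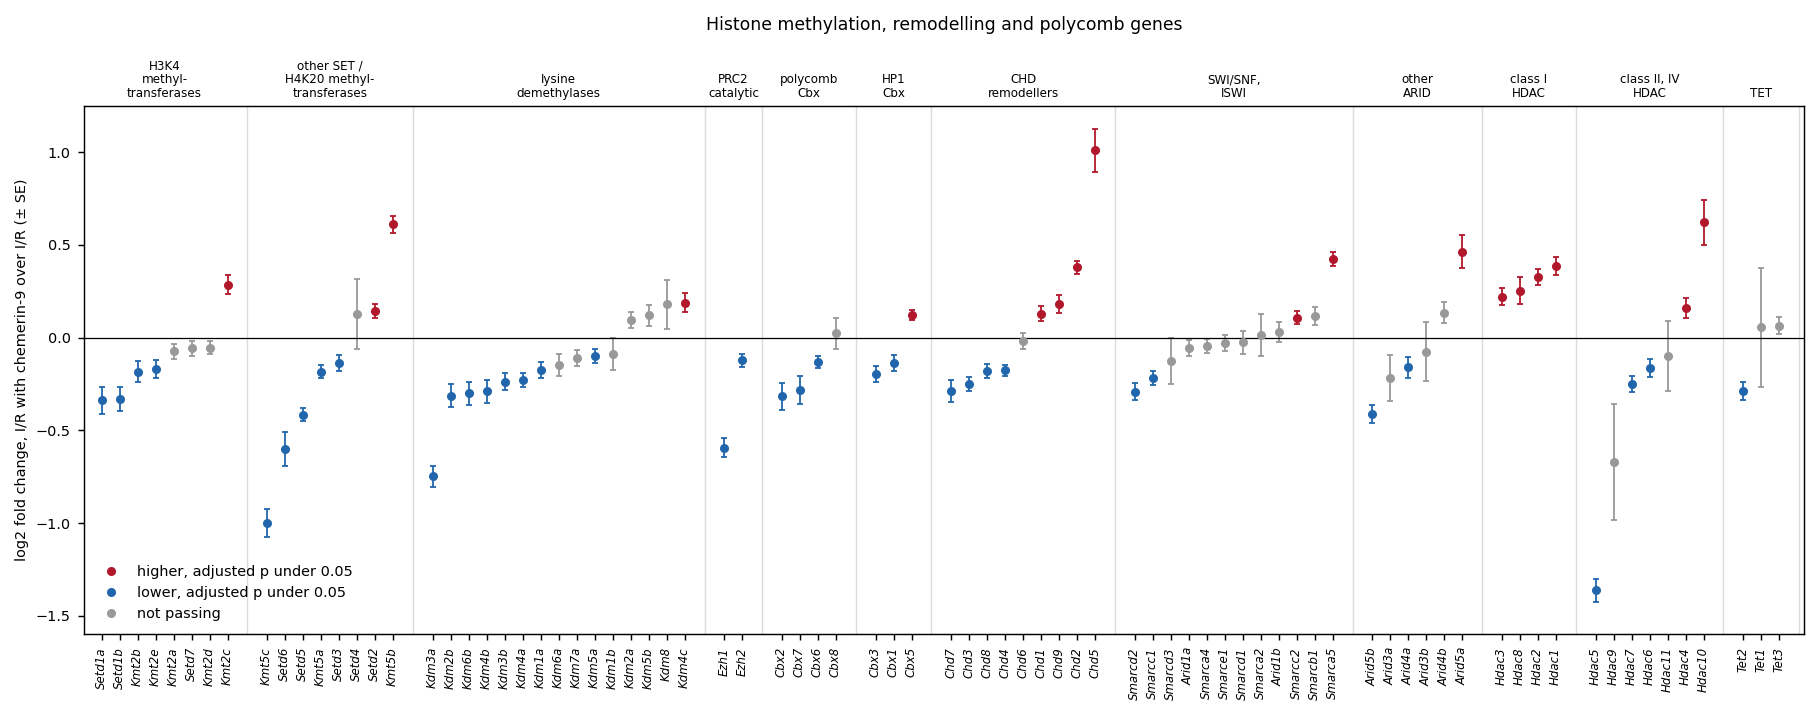
The log2 fold change of I/R with chemerin-9 over I/R is plotted by gene in 12 role classes, with bars of ± 1 standard error. Red points rose, blue points fell and grey points did not pass an adjusted p of 0.05. Chd5 was the highest at 1.01, Hdac5 the lowest at -1.36, and all 4 class I deacetylases stood above 0.

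The class I histone deacetylases Hdac1, Hdac2, Hdac3 and Hdac8 are nuclear enzymes, the first 2 of them shared subunits of the NuRD and Sin3 repressor complexes. All 4 rose with chemerin-9, against 25.6% of all tested genes, and their median log2 fold change was 0.29. Hdac1 measured 112, 109 and 111 CPM in I/R with chemerin-9, against 81.0, 83.4 and 89.8 CPM in I/R. Hdac2 measured 179, 183 and 200.05 CPM in I/R with chemerin-9 and 149.7, 146 and 153 CPM in I/R. The groups did not overlap in either gene. The log2 fold change was 0.39 ± 0.05 for Hdac1 and 0.33 ± 0.04 for Hdac2 (± SE, edgeR adjusted p = 8.3e-06 and 2.5e-05). Hdac3, the deacetylase of a nuclear receptor corepressor complex, changed by 0.22, and Hdac8, which deacetylates the cohesin subunit Smc3, by 0.25 on the log2 scale. Hdac8 did not pass without replicate 2 of I/R with chemerin-9 (0.20, edgeR adjusted p = 0.062), nor in the fit with the GC and length trend removed. Hdac1 shares near-identical sequence with the pseudogene Gm10093 (99.4% identity), for which the table used here has no row, so how reads of that copy were counted is uncertain.

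The class II and IV deacetylases did not move together: 2 rose, 3 fell and 2 did not pass (71.4% passed, against 51.7% of all tested genes). Hdac5, a class IIa enzyme whose nuclear export is controlled by phosphorylation, fell most of all 82 genes. It measured 29.1, 31.8 and 31.6 CPM in I/R with chemerin-9 and 75.5, 83.3 and 79.4 CPM in I/R. Every library of I/R with chemerin-9 was below every library of I/R, and the fold was 0.389, that is 2.57-fold lower with chemerin-9 (log2 -1.36 ± 0.06, edgeR adjusted p = 2.3e-10). The gene (ENSMUSG00000008855) lies at chr11:102194432-102230166 on the minus strand of GRCm38. Hdac10, which deacetylates the polyamine acetylspermidine, measured 16.1, 22.1 and 17.6 CPM in I/R with chemerin-9 and 11.8, 12.3 and 12.3 CPM in I/R (log2 0.62 ± 0.12, edgeR adjusted p = 4.9e-04). The groups did not overlap in Hdac10, though its values spread more in I/R with chemerin-9 (SD 3.13, against 0.252 CPM). Hdac7, a class IIa enzyme that was the most highly counted of the class, measured 141, 132 and 128 CPM in I/R with chemerin-9 and 157, 160.3 and 159 CPM in I/R (log2 -0.25 ± 0.04, edgeR adjusted p = 1.8e-04). Hdac6, the cytoplasmic tubulin deacetylase, fell by 0.16 and Hdac4 rose by 0.16 on the log2 scale. The Hdac4 call was lost in 3 of the 6 fits that leave out 1 library (without replicates 1 or 2 of I/R with chemerin-9 or replicate 2 of I/R, edgeR adjusted p = 0.070, 0.090 and 0.12). Hdac9 and Hdac11 were counted low, at up to 4.50 CPM on average in either group, and did not pass (log2 -0.67 and -0.10). Hdac9 did pass without replicate 3 of I/R (log2 -0.92, edgeR adjusted p = 0.022).

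The log2 ratio of Hdac1 to Hdac5, each in CPM per kb of its longest transcript, was 3.35, 3.18 and 3.22 in the libraries of I/R with chemerin-9 and 1.51, 1.41 and 1.58 in those of I/R. The groups did not overlap. This pair and the 3 pairs below were chosen after their values had been seen, and their ratios are a description without a test.

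The 8 other SET-domain and H4K20 methyltransferase genes changed in 7 cases, 2 up and 5 down (87.5%, against 51.7% of all tested genes). Kmt5a places the first methyl group on lysine 20 of histone H4, and Kmt5b and Kmt5c add further ones. Kmt5c (ENSMUSG00000059851, chr7:4740115-4747514 on the plus strand) measured 22.3, 26.5 and 24.9 CPM in I/R with chemerin-9 and 51.7, 46.4 and 49.8 CPM in I/R. Its level with chemerin-9 was 0.5 of that in I/R, and the groups did not overlap (SE 0.07 on the log2 scale, edgeR adjusted p = 5.0e-08). Its paralog Kmt5b (ENSMUSG00000045098, chr19:3767421-3818303 on the plus strand) did the opposite, with 132, 127 and 136 CPM in I/R with chemerin-9 and 89.0, 82.5 and 86.7 CPM in I/R (log2 0.61 ± 0.05, edgeR adjusted p = 4.7e-08). The log2 ratio of Kmt5b to Kmt5c per kb was 1.42, 1.12 and 1.30 in I/R with chemerin-9 and -0.36, -0.31 and -0.34 in I/R. Kmt5b was thus the higher of the pair per kb in the 3 libraries of I/R with chemerin-9 and the lower in the 3 of I/R. Kmt5a fell by 0.18 on the log2 scale.

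In the same class, Setd5, a chromatin regulator whose loss causes intellectual disability in humans, was the most highly counted of the class. It measured 244, 245 and 246 CPM in I/R with chemerin-9, against 330.5, 333 and 316 CPM in I/R (log2 -0.41 ± 0.03, edgeR adjusted p = 1.4e-07). Setd6, which methylates the NF-kB subunit RelA, measured 19.96, 19.2 and 23.4 CPM in I/R with chemerin-9 and 31.2, 29.6 and 34.0 CPM in I/R (log2 -0.60 ± 0.09, edgeR adjusted p = 6.2e-05). Neither gene's groups overlapped. Setd3, which methylates actin on histidine, fell by 0.13 and Setd2, the enzyme that trimethylates lysine 36 of histone H3, rose by 0.15 on the log2 scale. Setd3 did not pass without replicate 2 of I/R with chemerin-9 or without replicate 1 of I/R (edgeR adjusted p = 0.082 and 0.056). Setd2 moved by 0.01 once the GC and length trend was removed and no longer passed. Setd4 was counted at 5.34 CPM on average in I/R with chemerin-9 and 4.90 CPM in I/R and did not pass.

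**Figure D2:**
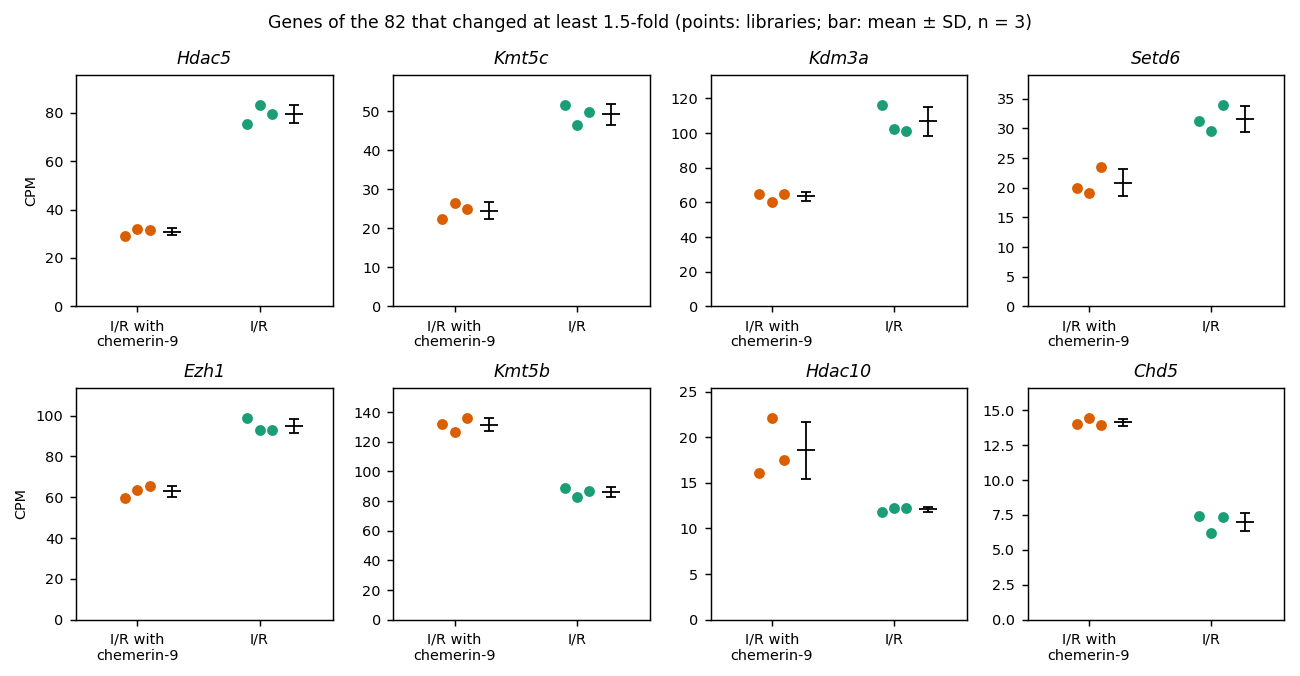
CPM of each library is plotted for the 8 genes that changed at least 1.5-fold, with the group mean and SD beside the points (n = 3). In none of the 8 do the libraries of I/R with chemerin-9 and of I/R overlap, but the 8 were picked by their change in these same libraries.

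Of the 15 lysine demethylases, 8 fell, 1 rose and 6 did not pass (60% passed, against 51.7% of all tested genes). The median log2 fold change was -0.15. Kdm3a, a demethylase of mono- and dimethylated lysine 9 of histone H3 and a gene induced by hypoxia, had the largest change of the class. It (ENSMUSG00000053470, chr6:71588972-71632990, minus strand) measured 64.9, 60.5 and 65.1 CPM in I/R with chemerin-9 and 116, 103 and 101 CPM in I/R. The groups did not overlap (log2 -0.75 ± 0.06, edgeR adjusted p = 7.5e-08). Kdm2b, which brings a variant PRC1 to unmethylated CpG islands, measured 38.5, 40.0 and 37.1 CPM in I/R with chemerin-9 and 45.3, 48.1 and 50.004 CPM in I/R (log2 -0.31 ± 0.06, edgeR adjusted p = 7.3e-04). Kdm4a, a demethylase of histone H3 lysines 9 and 36 and the most highly counted of the class, measured 183, 183 and 172 CPM in I/R with chemerin-9, against 206, 207 and 217 CPM in I/R (log2 -0.23 ± 0.04, edgeR adjusted p = 2.1e-04). Neither overlapped between the groups. The other falls lay between -0.30 and -0.10 on the log2 scale. They were those of Kdm6b (a histone H3 lysine 27 demethylase, -0.30), Kdm4b (-0.29), Kdm3b (-0.24), Kdm1a (the LSD1 enzyme, -0.17) and Kdm5a (a lysine 4 demethylase, -0.10). The Kdm5a call was lost in 4 of the 6 fits that leave out 1 library (without replicates 2 or 3 of I/R with chemerin-9 or replicates 1 or 2 of I/R), where the edgeR adjusted p lay between 0.058 and 0.12. Kdm4c rose by 0.19, but not once the GC and length trend was removed (0.10, edgeR adjusted p = 0.084). Kdm6a and Kdm7a did not pass (-0.15 and -0.11, edgeR adjusted p = 0.054 and 0.051), but did without replicate 3 of I/R (edgeR adjusted p = 0.0044 and 0.005). Kdm1b, Kdm2a, Kdm5b and Kdm8 did not pass, with log2 fold changes between -0.09 and 0.18. Kdm2a passed as higher without replicate 1 of I/R (log2 0.13, edgeR adjusted p = 0.030).

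Both catalytic subunits of PRC2 fell, against 26.1% of all tested genes, and by unequal amounts. Ezh1, the paralog that prevails in non-dividing tissue, measured 59.7, 63.4 and 65.4 CPM in I/R with chemerin-9 and 98.8, 93.2 and 92.9 CPM in I/R (ENSMUSG00000006920, chr11:101191115-101226463, minus strand). Ezh2, the paralog of dividing cells, measured 165, 167 and 168 CPM in I/R with chemerin-9, against 182, 183 and 179.9 CPM in I/R. The groups did not overlap in either gene. The log2 fold change was -0.59 ± 0.05 for Ezh1 (1.51-fold lower with chemerin-9) and -0.12 ± 0.04 for Ezh2 (edgeR adjusted p = 2.0e-07 and 0.0094). The log2 ratio of Ezh1 to Ezh2 per kb was -2.06, -1.99 and -1.96 in I/R with chemerin-9 and -1.48, -1.57 and -1.55 in I/R, so Ezh2 was the higher in every library.

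The polycomb chromobox proteins are the PRC1 subunits that read trimethylated lysine 27. Of these genes 3 fell and none rose, against 26.1% lower and 25.6% higher over all tested genes. Cbx2 measured 26.8, 24.9 and 27.8 CPM in I/R with chemerin-9 and 32.6, 31.7 and 34.6 CPM in I/R. Cbx7 measured 29.9, 31.9 and 29.2 CPM in I/R with chemerin-9 and 35.5, 35.0 and 39.9 CPM in I/R. Cbx6, the most highly counted, measured 249, 249 and 246 CPM in I/R with chemerin-9, against 275, 267 and 273 CPM in I/R. In all 3 the groups did not overlap, with log2 fold changes of -0.32 ± 0.07, -0.28 ± 0.07 and -0.13 ± 0.03 (edgeR adjusted p = 0.0023, 0.0051 and 0.004 for Cbx2, Cbx7 and Cbx6). Cbx8 measured 20.3, 20.3 and 21.5 CPM in I/R with chemerin-9 and 19.8, 19.8 and 21.5 CPM in I/R, with overlapping groups and a log2 fold change of 0.02 ± 0.08.

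The HP1 chromobox proteins bind methylated lysine 9 of histone H3 in heterochromatin. Cbx5 measured 1431, 1411 and 1418 CPM in I/R with chemerin-9 and 1323, 1318 and 1278 CPM in I/R. Cbx3 measured 155, 162 and 163 CPM in I/R with chemerin-9 and 186, 193 and 172 CPM in I/R. Cbx1 measured 221, 223 and 237 CPM in I/R with chemerin-9, against 235, 264 and 251 CPM in I/R. Cbx5 rose by 0.12 ± 0.03 and Cbx3 fell by 0.20 ± 0.05 on the log2 scale, both without overlap of the groups (edgeR adjusted p = 0.0014 and 0.0019). Cbx1 fell by 0.14 ± 0.04 with overlapping groups (edgeR adjusted p = 0.018). That call was lost without replicate 1 or 2 of I/R with chemerin-9 or replicate 2 of I/R (edgeR adjusted p = 0.075, 0.071 and 0.092). The sign of Cbx5 changed with the GC and length trend removed, to -0.03, where it did not pass. Per kb of transcript, Cbx5 was the highest of all 82 genes, at 161 CPM per kb in I/R with chemerin-9 and 148 CPM per kb in I/R, and Cbx1 the second at 95.6 CPM per kb in I/R with chemerin-9 and 105 CPM per kb in I/R.

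**Figure D3:**
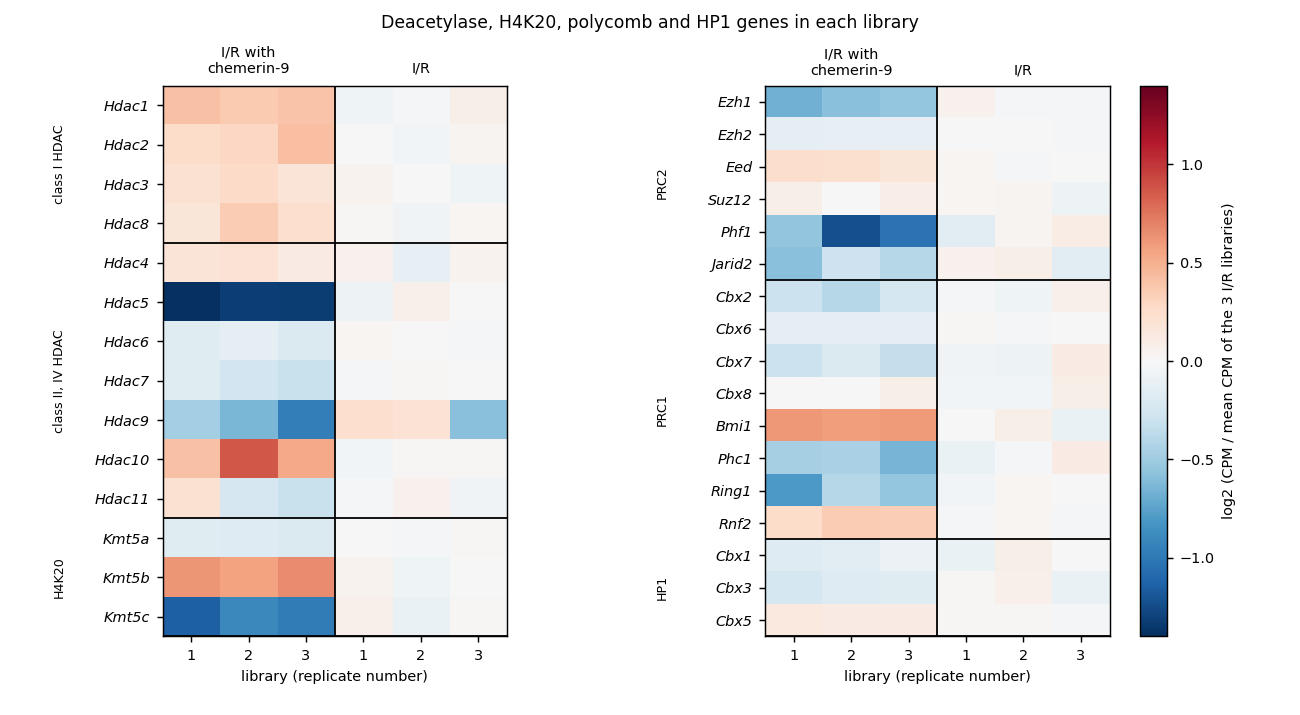
The log2 ratio of each library's CPM to the mean of the 3 I/R libraries is shown. The deacetylases and the H4K20 genes are on the left, and selected PRC2 and PRC1 genes and the HP1 genes on the right. Bmi1, Phc1, Ring1 and Rnf2 were the other PRC1 subunits with the smallest p. Red is higher and blue lower. Class I deacetylases, Kmt5b and Bmi1 are red and Hdac5, Kmt5c and Ezh1 blue in all 3 libraries of I/R with chemerin-9.

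The CHD remodellers divided evenly, with 4 of 9 higher, 4 lower and Chd6 not passing (log2 -0.02). The share that passed was 88.9%, against 51.7% of all tested genes. Chd5, a remodeller known mainly from neurons and as a tumour suppressor, measured 14.03, 14.4 and 13.9 CPM in I/R with chemerin-9 and 7.44, 6.24 and 7.34 CPM in I/R. The groups did not overlap, and the level was 2.01-fold higher with chemerin-9 (log2 1.01 ± 0.12, edgeR adjusted p = 4.7e-06), at 1.49 CPM per kb with chemerin-9 and 0.739 CPM per kb in I/R, among the lowest of the 82. Chd2 measured 235, 231 and 239 CPM in I/R with chemerin-9, against 180.3, 183 and 178 CPM in I/R (log2 0.38 ± 0.03, edgeR adjusted p = 4.4e-07). In Chd2, 18.4% of the exon bases overlap 1810026B05Rik on the same strand, and how shared reads were counted is uncertain. Chd4, the ATPase of NuRD, measured 545, 555 and 549.8 CPM in I/R with chemerin-9 and 620.2, 623 and 621 CPM in I/R (log2 -0.18 ± 0.03, edgeR adjusted p = 1.1e-04). The groups did not overlap in these 2 genes either, and the log2 ratio of Chd2 to Chd4 per kb was -1.65, -1.70 and -1.64 with chemerin-9 and -2.22, -2.20 and -2.24 in I/R. Chd3, its NuRD paralog, fell by 0.25, Chd7, the gene of CHARGE syndrome in humans, by 0.29, and Chd8, by 0.18 on the log2 scale. Chd1 and Chd9 rose by 0.13 and 0.18, and neither passed with the GC and length trend removed. Chd1 also did not pass without replicate 1 of I/R with chemerin-9 (edgeR adjusted p = 0.056).

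Of the 8 genes grouped here as H3K4 methyltransferases, 1 rose, 4 fell and 3 did not pass. The share that passed was 62.5%, against 51.7% of all tested genes. Setd1a and Setd1b, the catalytic subunits of the complexes that place much of the trimethylated lysine 4 at promoters, both fell. Setd1a measured 25.7, 26.3 and 24.8 CPM in I/R with chemerin-9 and 34.0, 31.1 and 31.9 CPM in I/R. Setd1b measured 34.1, 32.2 and 35.2 CPM in I/R with chemerin-9 and 44.5, 41.2 and 41.9 CPM in I/R. The groups did not overlap in either, with log2 fold changes of -0.34 ± 0.07 and -0.33 ± 0.07 (edgeR adjusted p = 0.0012 and 6.1e-04). In Setd1a, 51.8% of the exon bases overlap another annotated gene on the same strand, Gm49388, and how shared reads were counted is uncertain. Kmt2d, a main enzyme of lysine 4 monomethylation at enhancers and the most highly counted of the class, measured 367, 362 and 351 CPM in I/R with chemerin-9, against 378, 357 and 385 CPM in I/R. Its groups overlapped and it did not pass (edgeR adjusted p = 0.24). Kmt2c, its paralog, rose by 0.28, and Kmt2b and Kmt2e fell by 0.18 and 0.17 on the log2 scale. Kmt2b did not pass without replicates 2 or 3 of I/R with chemerin-9 or replicate 2 of I/R (edgeR adjusted p = 0.063, 0.070 and 0.053). Kmt2a and Setd7 did not pass, at -0.07 and -0.06. Kmt2a passed without replicate 3 of I/R (edgeR adjusted p = 0.028).

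In the SWI/SNF and ISWI class 2 of 12 rose, 2 fell and 8 did not pass. The share that passed was 33.3%, against 51.7% of all tested genes, and the median log2 fold change was -0.03. Smarca5, the ISWI ATPase, measured 364, 355 and 378 CPM in I/R with chemerin-9 and 264, 285 and 271 CPM in I/R (log2 0.42 ± 0.04, edgeR adjusted p = 3.4e-07). Its groups did not overlap. It has 6 near-identical pseudogene copies in the annotation, with mean counts of 3.83 to 75, against 4344 for Smarca5 itself. Smarcd2, a SWI/SNF subunit, measured 73.4, 71.4 and 74.3 CPM in I/R with chemerin-9, against 89.9, 87.4 and 90.8 CPM in I/R (log2 -0.29 ± 0.05, edgeR adjusted p = 7.7e-05). Smarcc1, a scaffold subunit, fell by 0.22 and its paralog Smarcc2 rose by 0.11 on the log2 scale. Smarcc2 did not pass without replicates 2 or 3 of I/R with chemerin-9 or replicate 2 of I/R (edgeR adjusted p = 0.10, 0.079 and 0.070). The catalytic ATPases Smarca4 and Smarca2 were among those that did not pass, at -0.04 and 0.01. The others were Arid1a, Arid1b, Smarcb1, Smarcd1, Smarcd3 and Smarce1, with log2 fold changes between -0.13 and 0.12. Smarcb1, at 0.12, passed without replicate 3 of I/R (edgeR adjusted p = 0.020). In Smarcd3, 48.2% of the exon bases overlap Chpf2 on the other strand.

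The other ARID genes gave 1 rise and 2 falls among 6 (50% passed, against 51.7% of all tested genes). Arid5a, an RNA-binding protein that stabilises Il6 mRNA, measured 39.0, 32.6 and 41.7 CPM in I/R with chemerin-9 and 28.7, 26.7 and 26.9 CPM in I/R (log2 0.46 ± 0.09, edgeR adjusted p = 4.0e-04). Its paralog Arid5b, a partner of the demethylase Phf2, measured 58.0, 59.6 and 58.6 CPM in I/R with chemerin-9, against 76.4, 80.7 and 77.3 CPM in I/R (log2 -0.41 ± 0.05, edgeR adjusted p = 5.5e-06). The groups did not overlap in either paralog. Arid4b, the most highly counted, measured 95.4, 94.5 and 101 CPM in I/R with chemerin-9 and 90.9, 94.2 and 80.4 CPM in I/R, without overlap, and did not pass (edgeR adjusted p = 0.063). It passed without replicate 2 of I/R (edgeR adjusted p = 0.027). Arid4a, a Sin3 partner, fell by 0.16 on the log2 scale and lost its call in 4 of the 6 fits that leave out 1 library (without replicates 1 or 2 of either group), with edgeR adjusted p between 0.060 and 0.084. Arid3a and Arid3b did not pass and were under 10 CPM in both groups.

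Of the TET dioxygenases, which oxidise 5-methylcytosine, only Tet2 passed (33.3%, against 51.7% of all tested genes). It measured 85.8, 80.8 and 84.6 CPM in I/R with chemerin-9 and 101, 107 and 99.6 CPM in I/R, without overlap (log2 -0.29 ± 0.05, edgeR adjusted p = 1.1e-04). Tet3 measured 109, 106 and 102 CPM in I/R with chemerin-9 and 100.2, 97.7 and 105 CPM in I/R, with overlapping groups (log2 0.06 ± 0.05, edgeR adjusted p = 0.27). Tet1 averaged 1.89 CPM in I/R with chemerin-9 and 1.86 CPM in I/R and was the lowest of the 82 per kb, at 0.131 CPM per kb in I/R with chemerin-9 and 0.129 CPM per kb in I/R.

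Other genes of the same machinery lie outside the rule. Of 101 tested, 62 passed (61.4%, against 51.7% of all tested genes). They were 35 higher and 27 lower (against 25.6% and 26.1% of all tested genes), and the median log2 fold change of the 101 was -0.0014. Without replicate 3 of I/R the split was 31 higher and 31 lower (against 25% and 25.4% of all tested genes). Removing the GC and length trend gave 30 higher and 39 lower (against 24.6% and 27.8%). The lists behind these counts were written out by complex.

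Of the 9 other PRC2 subunits, 2 rose and 3 fell (55.6% passed, against 51.7% of all tested genes). Phf1, whose Tudor domain binds trimethylated lysine 36, measured 8.98, 5.60 and 6.44 CPM in I/R with chemerin-9 and 11.8, 13.4 and 14.1 CPM in I/R (log2 -0.93 ± 0.16, edgeR adjusted p = 1.5e-04). The core subunit Eed rose by 0.21, the core histone-binding subunit Rbbp4 fell by 0.30 and Aebp2 rose by 0.14 on the log2 scale. Of the 14 other PRC1 subunits, 5 rose and 4 fell (64.3% passed, against the same 51.7%). The RING ligase Rnf2 rose by 0.32 and its paralog Ring1 fell by 0.56 on the log2 scale. Bmi1, the PRC1 partner of these ligases, measured 102, 101 and 101 CPM in I/R with chemerin-9 and 67.3, 71.0 and 62.9 CPM in I/R (log2 0.60 ± 0.05, edgeR adjusted p = 1.7e-07). Phc1, a polyhomeotic subunit, fell by 0.53.

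Of the 8 COMPASS core subunits 4 rose and 3 fell (87.5% passed, against 51.7% of all tested genes). Men1, the menin subunit of Kmt2a and Kmt2b complexes, fell by 0.50 on the log2 scale. Wdr82, the Setd1 subunit, rose by 0.34 on that scale. Of 13 deacetylase-complex scaffolds, 3 rose and 4 fell (53.8% passed, near the 51.7% of all tested genes). Gatad2b, a NuRD subunit, measured 178, 165 and 171 CPM in I/R with chemerin-9, against 257, 257 and 259 CPM in I/R (log2 -0.59 ± 0.04, edgeR adjusted p = 9.0e-09). Sin3a, the Sin3 scaffold, fell by 0.33 on the log2 scale. Of the 9 histone acetyltransferases, 3 rose and 1 fell (44.4% passed, below the 51.7% of all tested genes). Kat6a, the MOZ acetyltransferase, rose by 0.36 on the log2 scale.

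Of the 15 other histone methyltransferases, 7 rose and 5 fell (80% passed, against 51.7% of all tested genes). Prmt1, the main arginine methyltransferase, rose by 0.50 and Nsd1, a lysine 36 methyltransferase, by 0.54, while Ehmt2, the G9a lysine 9 methyltransferase, and Dot1l, the lysine 79 methyltransferase, each fell by 0.36 on the log2 scale. Of 15 other remodellers, 6 rose and 2 fell (53.3% passed, near the 51.7% of all tested genes). Hells, a remodeller needed for DNA methylation, measured 504, 489 and 520.4 CPM in I/R with chemerin-9 and 358, 369 and 339 CPM in I/R (log2 0.51 ± 0.04, edgeR adjusted p = 4.8e-08). Of the 14 other SWI/SNF subunits tested, 5 rose and 4 fell (64.3% passed, against the same 51.7%). Among them, Brd9 fell by 0.39 and Actl6a rose by 0.27 on the log2 scale. Of the 4 genes of DNA methyltransferases and Uhrf1, only Uhrf1 passed (25%, against the same 51.7%), lower by 0.22 (log2 -0.22).

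Among the 82 genes GC content of the longest transcript and log2 fold change had a Pearson correlation of -0.25 and a Spearman correlation of -0.33, and length had 0.10 in both. These are across genes of the same 6 libraries and describe only. The members' longest transcripts had a median of 5928 bases, against 3121 for all tested genes. Their median GC content was 51.2%, against 49.1%. The part of the greater length in the share that passed was not tested. The median GC content was 47.1% in the 18 genes that rose, 52.6% in the 36 that fell and 51.8% in the 28 that did not pass.

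**Figure D4:**
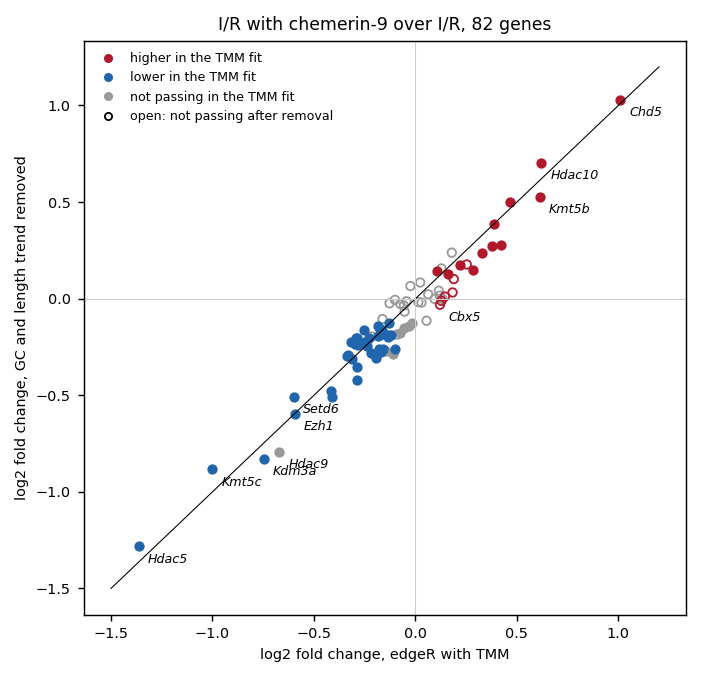
The log2 fold change of I/R with chemerin-9 over I/R is plotted for the 82 genes, with the GC and length trend removed (vertical) against the edgeR fit with TMM (horizontal), and the line marks equality. Open points do not pass after removal. Hdac5 stands at -1.28 with the trend removed and -1.36 with TMM alone, Chd5 at 1.03 and 1.01, and the points that change sign lie near 0.

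Of the members, 14 had a copy at 95% identity or more over at least 50% of the shorter transcript. Exon bases were shared with a gene on the opposite strand by 30 members and on the same strand by 8. Whether counting used strand is not given here, so reads of such pairs cannot be told apart.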

How the data were processed

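RNA of 6 mouse libraries was sequenced. Raw counts per gene symbol were deposited by the authors without normalization, as the whole numbers with unequal totals show. HISAT2, HTSeq, DESeq 1.18.1 and the build mm10 are named per the submitters' processing notes, and total RNA was made into libraries with a stranded mRNA kit per the labels' protocols. Which annotation release was used, and whether HTSeq counted by strand, is not given in the sources used. Of 25216 rows, 27 repeats of a symbol were removed. Coordinates follow GRCm38, since 97.5% of genes had the same start in GENCODE M21.

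The columns headed IC were assigned to chemerin-9 by their initials, since the labels of those samples name columns of another table. Titles were followed where the treatment field reads C9, C10 and C11 in turn.

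The test was edgeR 4.0.16 (R 4.3.3) with TMM size factors, filterByExpr by group and a quasi-likelihood fit on group alone, with Benjamini-Hochberg adjustment over 14184 genes at 0.05. Values are CPM of TMM-adjusted library sizes with mean ± SD over 3 libraries, and the biological coefficient of variation was 5.18%. GC and length trends were removed with splines of 5 degrees of freedom. Copies were searched with BLAST 2.17.0 among GENCODE M21 transcripts. The script was tested on simulated data. Same-numbered libraries showed no clear pairing (correlation of their deviations 0.10, -0.052 and 0.042). With 3 libraries per group this cannot exclude a pairing. Alternatives were other size factors, filters, DESeq2 1.42.0, limma-voom, a robust prior, a replicate block, a threshold of 0.1, the removed trends and each library left out.

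Values of every library are given, in each role class, for the members with the largest and second largest change among those that passed, for the member with the highest mean CPM, and for the Ezh, HP1 and polycomb chromobox genes, apart from genes whose values are not reported here. Setd6 was added after its values were seen. Of each related list at most 4 genes with the smallest p are named. Members and lists were chosen with earlier results of these data known.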

Additional observations from a re-analysis of the deposited data

How the results depend on the processing

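Of the 54 members that passed, 41 (10 higher and 31 lower) passed in all 17 alternatives, 12 were lost in at least 1, and Cbx5 and Chd1 (the second also among the 12) changed sign. The threshold of 0.1 uses the same fit, so no member that passed could be lost in that alternative. With DESeq2 the calls of Arid4a, Hdac4, Kdm5a and Smarcc2 were lost. Kdm5a also lost its call with upper-quartile size factors and with the replicate block. The number that passed was 46 to 59 with 1 library left out (against 44.2% to 50.3% of all tested genes), 50 with DESeq2 (against 6043 of 15993 genes, 37.8%, in that fit) and 54 with a replicate block (19 higher and 35 lower), where 7300 of all tested genes passed. Members that rose numbered 11 once the GC and length trend was removed in a fit with the replicate block (3355 of 13651 genes overall), against 18 (3637 of 14184), and 15 to 19 with 1 library left out (3179 to 3632 genes overall). Members past 1.5-fold were 6 with upper-quartile size factors (2247 genes overall), against 8 (2260). Not every library of I/R with chemerin-9 correlated best with its own replicate number, but this check cannot exclude a pairing by number.

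No member whose sign changed passed in that alternative. With the GC and length trend removed, first without and then with the replicate block, log2 fold changes were -0.0314 and -0.0315 for Cbx5, -0.0114 and -0.0113 for Chd1, -0.0205 and -0.0200 for Arid1b, -0.0022 and -0.0013 for Arid4b, -0.0011 and -0.00071 for Kdm2a, -0.0177 and -0.0166 for Smarca2, 0.0654 and 0.0657 for Smarcd1, and -0.114 and -0.0870 for Tet1. With 1 library left out, log2 fold changes spanned -0.0034 to 0.0701 for Arid1b, -0.138 to 0.0027 for Arid3b, -0.0098 to 0.0651 for Cbx8, -0.0441 to 0.0111 for Chd6, -0.0921 to 0.233 for Setd4, -0.0454 to 0.113 for Smarca2, -0.0704 to 0.0027 for Smarcd1 and -0.173 to 0.424 for Tet1. The cause was not tested. Arid3b, Setd4 and Tet1 are among the 8 members under 10 CPM in both groups.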
